A study of Mus musculus with 4 samples.

Results

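The genes examined here were 58 protein-coding genes whose level in each of the 2 cKO libraries was at least 2 times the level in either control library. They were picked from 13116 eligible genes. A gene was eligible when it was protein coding, had a count in every library, had at least 40 reads over the 4 libraries, lay outside chromosomes X and Y, and was not Aqp4. Levels are in CPM, reads per 1000000 reads of the library. Where a pair of values is given, controls are in the order control 1, control 6 and cKO libraries in the order cKO 2, cKO 5. The same CPM values chose the members, so their difference between genotypes is described and not tested. No member's groups overlap, because the rule required it.

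The RNA came from microglia, the resident macrophages of the brain, taken from the cerebral cortex of untreated mouse embryos at embryonic day 16. Both control libraries (control 1 and control 6) were labelled Bach1 fl/fl, a genotype with a floxed Bach1 allele. Both cKO libraries (cKO 2 and cKO 5) were labelled Bach1 cKO, and the series text names the conditional knockout Bach1cKO-Cx3. Neither the recombinase allele behind the name Cx3, the number of embryos per library nor the isolation of the cells is given in the sources used here. The series text speaks of replicates in triplicate, and 2 libraries per genotype were analysed here. Whether they are separate animals is not stated, so the spread between them may be technical.

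Bach1 encodes a heme-binding repressor that shares binding sites with the activator NRF2 and holds down genes of heme breakdown, iron storage and antioxidant defence. Embryonic microglia lie among neurons, radial glia and vessels, and RNA of those cells can be carried into a microglial preparation. The 58 genes are no known pathway. They include synaptic, ciliary, chromosomal and metabolic genes, and many are better known from neurons than from macrophages.

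The libraries held 17472809 and 17233115 reads in control 1 and control 6, and 17310621 and 19305078 reads in cKO 2 and cKO 5. Bach1 itself had control levels of 45.8 and 21.6 CPM and cKO levels of 29.98 and 35.4 CPM, so its count did not separate the labelled genotypes. Which exons are floxed was not stated, and a count over the whole gene also takes reads of exons that remain, so it does not check the labels. Cx3cr1, a receptor gene of microglia, had 4333 and 5158 CPM against 747 and 2756 CPM. Reads of all 18 microglial markers were present in every library, with sums of 27334 and 43679 CPM in the controls against 9905 and 38715 CPM. The summed level of 14 markers of cortical excitatory neurons was 1361 and 427 CPM in the controls against 4768 and 382 CPM. The library cKO 2 thus stood apart from the other 3 in both lists. Vessel markers were arranged otherwise, with control 1 and cKO 2 both high. Brain endothelium sums were 3874 and 698 CPM in the controls against 3042 and 392 CPM. Those of pericytes and meningeal fibroblasts (8 of 11 with reads in every library) were 3883 and 752 CPM against 3495 and 283 CPM. In bulk RNA, fewer cells of a type and less RNA per cell cannot be told apart.

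All members were rare transcripts. Their reads over the 4 libraries ran from 40 to 346, with a median of 77, against a median of 1700.5 for eligible genes. The members' median levels were 0.229 and 0.174 CPM in the controls against 2.77 and 1.24 CPM, and those of eligible genes were 24.4 and 19.4 CPM against 27.96 and 18.9 CPM. Per kilobase of exon, the mean level over the libraries had a median of 0.301 CPM per kb for members and 4.85 CPM per kb for eligible genes. The highest among members was 2.05 CPM per kb, for Mrps23. Summed over the 58 genes, the members took 425 and 413 reads in the controls, 3090 reads in cKO 2 and 1972 reads in cKO 5.

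The share of genes meeting the rule was 0.442% of the eligible genes, and the mirror rule, in which each control is at least 2 times either cKO library, was met by 33 genes (0.252%). Both shares were highest among the genes with the fewest reads. Among eligible genes with at least 40 and fewer than 80 reads, 30 of 747 (4.02%) were members and 2.81% met the mirror rule. From 80 to below 160 reads the shares were 2.40% and 0.839%, and from 160 to below 320 reads 0.727% and 0.415%. A single member, Ppp2r3d, had more. None of the 9241 genes with 640 reads or more was a member, which allows a share of up to 0.0325%. A single gene of that class met the mirror rule. Ppp2r3d was the member with the most reads, and 10444 eligible genes (79.6%) had more. With TMM factors in place of library totals, Dyrk3, which had more reads than Ppp2r3d, also met the rule.

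**Figure D1:**
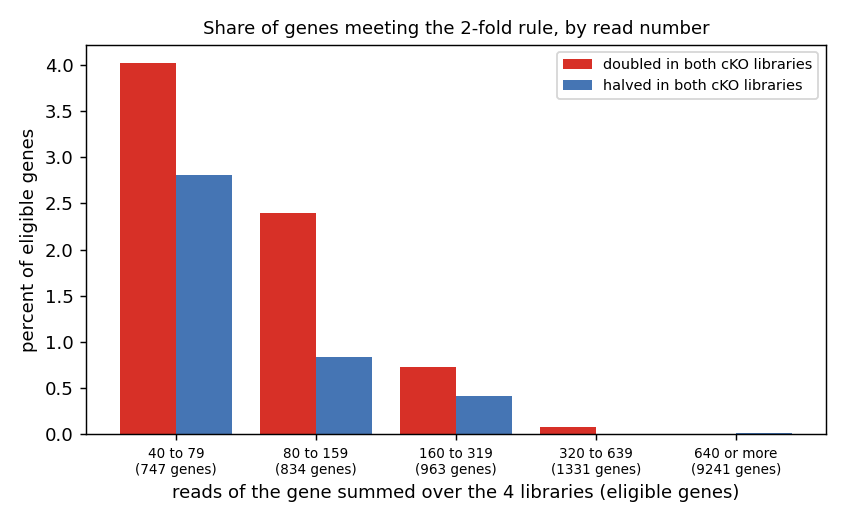
Percent of eligible genes that met the 2-fold rule in the higher direction (red) or the lower direction (blue), by the reads of the gene summed over the 4 libraries. The members made up 4.02% of the genes in the lowest class and none of the 9241 genes with 640 reads or more.

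Counting error was large for such genes. Of the 58 members, 8 had no read in either control, 19 had no read in 1 control and 31 had reads in both, but only 13 had 10 or more reads in both. For the 50 members with a control read, the lower cKO level was divided by the higher control level, and the median of this ratio was 2.51. Its exact 95% binomial interval, which covers counting error only, lay above 1 for 38 members and above 2 for 6. The rule required this ratio to be at least 2, so the intervals describe the counting error of chosen values and test nothing. At this depth 3 reads are 0.172 and 0.174 CPM in the controls, and a gene with no control read is compared with the larger of these floors.

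Promoters from RefSeq (GRCm38.p6, 250 bases before to 50 after the start) were matched for 42 of the 58 members. Motifs were searched on both strands because BACH1 binds antioxidant response elements. The core of that element, TGACNNNGC on either strand, was found in 6 of 42 members (14.3%), beside 16.95% of 10098 eligible genes and 12.4% of all 32851 promoters in the table. The longer Maf recognition element of the AP-1 kind, which holds the AP-1 core TGANTCA, was in 0 of 42, beside 0.109% and 0.155%. A cAMP response element, TGACGTCA, was in 3 members (7.14%), beside 3.60% and 1.79%. The AP-1 core itself was in Cgref1 alone (2.38%, beside 6.23% and 7.81%), and the GC box CCCGCCC was in 17 (40.5%, beside 51.5% and 25.6%). The shares in members thus lay near or below those of eligible genes except for the cAMP element, which rests on 3 genes. These windows are shown because they are the places where the members' promoters hold letters of a BACH1-type or cAMP-type site; each reads 5′ to 3′ along the gene, stops at the start site at the latest, and has the motif in capitals:
Fancf, chr7:51862321-51862379, minus strand: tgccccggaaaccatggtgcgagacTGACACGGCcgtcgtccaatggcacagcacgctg
Gpr176, chr2:118373420-118373464, minus strand: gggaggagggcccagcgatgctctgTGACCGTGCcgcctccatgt
Rasgrf1, chr9:89909612-89909670, plus strand: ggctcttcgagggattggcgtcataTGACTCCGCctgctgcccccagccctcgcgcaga
Cers3, chr7:66743354-66743412, plus strand, motif on the other strand: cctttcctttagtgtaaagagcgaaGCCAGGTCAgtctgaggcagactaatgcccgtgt
Cenpw, chr10:30200566-30200623, minus strand: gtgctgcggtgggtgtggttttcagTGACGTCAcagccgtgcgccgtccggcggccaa
Hhip, chr8:80058051-80058108, minus strand: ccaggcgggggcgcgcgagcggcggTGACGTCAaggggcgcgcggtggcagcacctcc
Dio2, chr12:90739101-90739158, minus strand: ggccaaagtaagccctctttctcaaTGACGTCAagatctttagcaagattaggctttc
The first base of the motif lay 87 bases before the start in Fancf, 20 in Gpr176, 138 in Rasgrf1, 125 in Cers3, 58 in Cenpw, 75 in Hhip and 95 in Dio2. The antioxidant response element matches of Lhx1, after the start, and of 4930550C14Rik are not shown. A match is letters in a window, not a bound site. The members with a shown match did not share a level pattern: Fancf and Cenpw were even between the cKO libraries, while the levels of Hhip and Dio2 in cKO 2 were 4.86 and 4.46 times those in cKO 5.

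**Figure D2:**
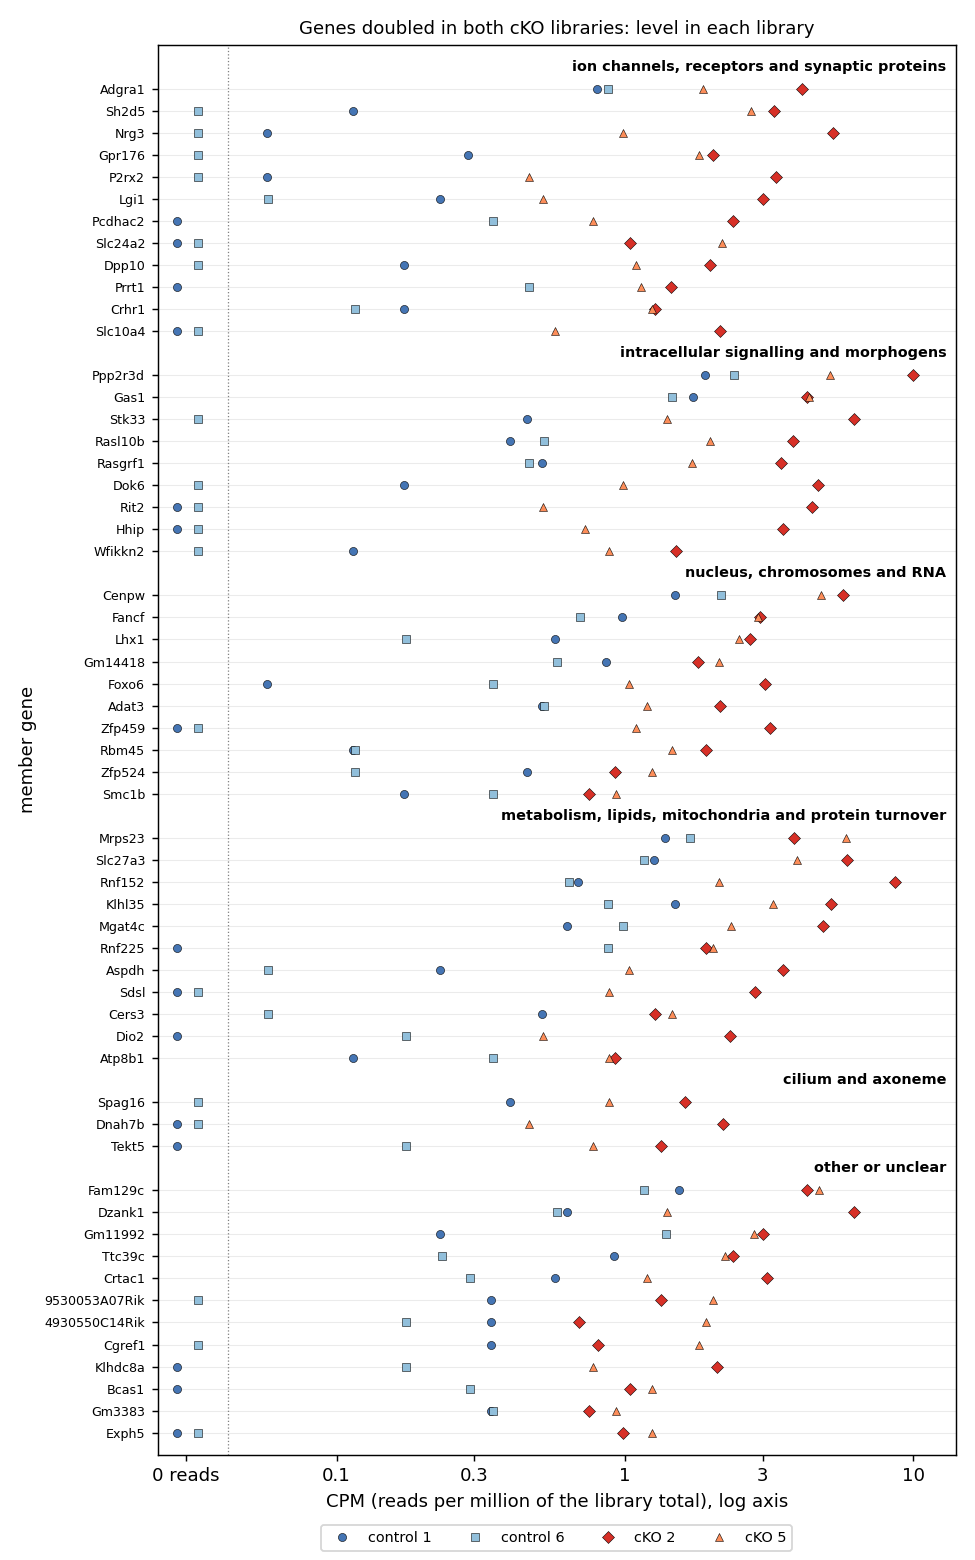
Level of 57 members in every library (CPM, log axis), with genes grouped by role and sorted by reads; points left of the dotted line are libraries with 0 reads. Every cKO point lies to the right of both control points of its gene, as the rule required, and no member reaches above 9.99 CPM.

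Roles were assigned from general knowledge after the members were known, so the groups below are an order of description and no evidence of a theme. The largest group held 13 ion channels, receptors and synaptic proteins. Together these had 33 and 42 reads in the controls, 664 reads in cKO 2 and 320 reads in cKO 5. P2rx2, an ATP-gated channel subunit, had 1 and 0 reads in the controls and 58 and 9 reads in cKO 2 and cKO 5. Its level in cKO 2, 3.35 CPM, was 7.19 times that in cKO 5 (95% interval 3.54 to 16.5). Nrg3, a neuregulin ligand of the receptor ErbB4, had 1 and 0 reads in the controls and 91 and 19 reads in cKO, a ratio of 17.2 (95% interval 2.73 to 715).

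Sh2d5, an adaptor protein with an SH2 domain, had 2 and 0 reads in the controls and 57 and 53 reads in cKO 2 and cKO 5. Its levels in cKO, 3.29 and 2.75 CPM, were close to each other, and its ratio of 23.98 (95% interval 6.32 to 203) was the highest among members with a control read. Crhr1, the receptor of corticotropin-releasing hormone, was even too, at control levels of 0.172 and 0.116 CPM and cKO levels of 1.27 and 1.24 CPM (ratio 7.24, 95% interval 2.199 to 37.6). Gpr176, an orphan receptor of the circadian clock, had control levels of 0.286 and 0 CPM and cKO levels of 2.02 and 1.81 CPM. Slc24a2, a potassium-dependent sodium/calcium exchanger of neurons, had no control read and 1.04 and 2.18 CPM in cKO, at least 5.97-fold above the floor, and was the one member of this group higher in cKO 5. Slc10a4, a transporter of synaptic vesicles, also had no control read and 2.14 and 0.570 CPM in cKO. Others of the group were the adhesion receptor Adgra1, the secreted synaptic protein Lgi1, the protocadherin Pcdhac2, the potassium channel partner Dpp10 and the AMPA receptor partner Prrt1, with 41 to 71 reads in cKO 2 except 25 in Prrt1 and 34 in Dpp10.

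Signalling and morphogen genes numbered 9. Ppp2r3d, a regulatory subunit gene of protein phosphatase 2A, had control levels of 1.89 and 2.38 CPM and cKO levels of 9.99 and 5.13 CPM (means 2.13 ± 0.347 and 7.56 ± 3.44 CPM, SD, n = 2 each). It was the most abundant member by reads. Gas1, a surface protein that binds Hedgehog ligands as a co-receptor, was the most even member. It had control levels of 1.72 and 1.45 CPM and cKO levels of 4.27 and 4.35 CPM (means 1.58 ± 0.188 and 4.31 ± 0.0540 CPM, SD, n = 2 each), a ratio of 2.49 (95% interval 1.61 to 3.94). Hhip, a membrane protein that sequesters the same ligands, had no control read and 3.52 and 0.725 CPM in cKO, at least 4.17-fold above the floor. Between the cKO libraries, the level of Hhip in cKO 2 was 4.86 times that in cKO 5 (95% interval 2.69 to 9.41), and that of Gas1 was 0.982 times (95% interval 0.709 to 1.36).

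Small GTPase signalling was represented by Rasgrf1, an exchange factor of Ras, and by the GTPases Rasl10b and Rit2. Rasgrf1 had control levels of 0.515 and 0.464 CPM and cKO levels of 3.47 and 1.71 CPM, and Rasl10b had 0.401 and 0.522 CPM against 3.81 and 1.97 CPM. Rit2, a GTPase of neurons, had no control read, 77 reads in cKO 2 and 10 reads in cKO 5. Dok6, a docking protein of receptor tyrosine kinases, had 3 and 0 reads in the controls and 81 and 19 reads in cKO. The kinase gene Stk33 had control levels of 0.458 and 0 CPM and cKO levels of 6.24 and 1.40 CPM. Wfikkn2, which encodes a secreted inhibitor of growth and differentiation factors, had 2 and 0 reads in the controls and 26 and 17 reads in cKO.

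Genes of the nucleus, chromosomes and RNA numbered 10. Their median ratio of cKO 2 to cKO 5 was 1.15, beside 2.199 in the ion channel and receptor group. Cenpw, a histone-fold protein of the inner kinetochore, had control levels of 1.49 and 2.15 CPM and cKO levels of 5.72 and 4.77 CPM (means 1.82 ± 0.466 and 5.24 ± 0.674 CPM, SD, n = 2 each; ratio 2.22, 95% interval 1.5 to 3.34). Fancf, an adaptor of the Fanconi anaemia core complex in DNA crosslink repair, had 0.973 and 0.696 CPM against 2.95 and 2.90 CPM (ratio 2.98, 95% interval 1.71 to 5.47). Smc1b, the cohesin subunit of meiosis, had 3 and 6 reads in the controls and 13 and 18 reads in cKO, with an interval that includes a ratio of 1 (ratio 2.16, 95% interval 0.765 to 6.92). Rbm45, an RNA-binding protein gene, had 2 reads in each control and 33 and 28 reads in cKO (ratio 12.5, 95% interval 3.15 to 108). Adat3, a subunit of the enzyme that deaminates adenosine in transfer RNA, had 0.515 and 0.522 CPM against 2.14 and 1.19 CPM.

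Transcription factors among these were Lhx1, Foxo6 and the zinc finger genes Zfp459, Zfp524 and Gm14418. Lhx1, a LIM homeobox factor of Cajal-Retzius cells in the cortex, had control levels of 0.572 and 0.174 CPM and cKO levels of 2.72 and 2.49 CPM (ratio 4.34, 95% interval 2.17 to 9.63). It was the single member in any of the 13 cell type and 9 pathway lists examined. The lists hold from 3 to 20 eligible genes each, so nothing is read from that count. Lhx1 stood in the Cajal-Retzius list. The other 5 genes of that list did not share its arrangement. Reln had 3.38 and 2.44 CPM in the controls against 20.4 and 3.004 CPM, Calb2 3.55 and 3.37 CPM against 40.5 and 2.49 CPM, and Lhx5 0.515 and 0 CPM against 3.75 and 0.414 CPM. These 3 were high in cKO 2 and at or near control levels in cKO 5. Trp73 had no read in cKO 5, and Ebf3 had none in cKO 2. Foxo6, a forkhead factor of the brain, had control levels of 0.0572 and 0.348 CPM and cKO levels of 3.06 and 1.04 CPM. Zfp459 had no control read and 3.18 and 1.09 CPM in cKO, at least 6.25-fold above the floor. Zinc finger genes of this kind have near-identical copies, so the counts of Zfp459 and Gm14418 are uncertain. Gm14418 had 15 and 10 reads against 31 and 41 reads.

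Metabolic, mitochondrial and protein turnover genes numbered 11. Mrps23, a protein of the small mitochondrial ribosomal subunit, had control levels of 1.37 and 1.68 CPM and cKO levels of 3.87 and 5.85 CPM (ratio 2.30, 95% interval 1.47 to 3.69), with its highest level in cKO 5. Slc27a3, an acyl-CoA synthetase of the fatty acid transporter family, had 1.26 and 1.16 CPM against 5.89 and 3.94 CPM (ratio 3.13, 95% interval 1.92 to 5.28). Cers3, the ceramide synthase of very long acyl chains, had 0.515 and 0.0580 CPM against 1.27 and 1.45 CPM, and Atp8b1, a phospholipid flippase gene, had 2 and 6 reads against 16 and 17 reads. The deiodinase gene Dio2, whose product makes active thyroid hormone in glia, had 0 and 3 reads in the controls, 40 reads in cKO 2 and 10 reads in cKO 5. Sdsl, a serine dehydratase relative, had no control read and 2.83 and 0.881 CPM in cKO, at least 5.06-fold above the floor. Aspdh, annotated as an aspartate dehydrogenase, had 4 and 1 reads against 61 and 20 reads.

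Rnf152, a lysosomal ubiquitin ligase that restrains mTORC1 signalling, had 0.687 and 0.638 CPM in the controls against 8.67 and 2.12 CPM. Its level in cKO 2 was 4.08 times that in cKO 5 (95% interval 2.87 to 5.91). Klhl35, a Kelch protein gene, had 1.49 and 0.870 CPM against 5.20 and 3.26 CPM, and Mgat4c, a glycosyltransferase gene, had 0.630 and 0.986 CPM against 4.85 and 2.33 CPM. The ring finger gene Rnf225 had control levels of 0 and 0.870 CPM and cKO levels of 1.91 and 2.02 CPM.

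The cilium and axoneme group held Spag16, a protein of the central apparatus, the dynein heavy chain Dnah7b and the microtubule protein Tekt5. Their 3 genes together had 7 and 3 reads in the controls, 89 reads in cKO 2 and 41 reads in cKO 5. Spag16 had 7 and 0 reads against 28 and 17 reads, and Tekt5 had 0 and 3 against 23 and 15. Dnah7b had no control read and 38 and 9 reads in cKO, at least 2.68-fold above the floor. Its relative Dnah7c had control levels of 0.801 and 0.0580 CPM and cKO levels of 2.14 and 0.259 CPM. How reads were divided between these relatives was not examined. Among the 12 remaining genes, Fam129c, a Niban family gene, was even, with control levels of 1.55 and 1.16 CPM and cKO levels of 4.27 and 4.71 CPM (ratio 2.77, 95% interval 1.76 to 4.47). Exph5, whose product binds the vesicle GTPase Rab27, had no control read and 17 and 24 reads in cKO, at least 5.64-fold above the floor. Dzank1 had 0.630 and 0.580 CPM against 6.24 and 1.40 CPM, and Bcas1, a gene of maturing oligodendrocytes, had 0 and 5 reads against 18 and 24 reads. Cgref1, a gene with EF-hand motifs, had 6 and 0 reads in the controls and 14 and 35 reads in cKO. Less is known of the rest of this group. Ttc39c had 16 and 4 reads against 41 and 43 reads, Klhdc8a had 0 and 3 against 36 and 15, and 9530053A07Rik had 6 and 0 against 23 and 39. Gm11992 had 4 and 24 reads against 52 and 54 reads, and Gm3383 had 6 in each control against 13 and 18.

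The members divided by how their levels compared between the cKO libraries, a comparison of 1 library with 1 library that has no replicate check. In 43 members (74.1%) the level was higher in cKO 2 than in cKO 5, and in 15 it was higher in cKO 5, while 65.4% of all eligible genes were higher in cKO 2. The median ratio of cKO 2 to cKO 5 was 1.71 for members and 1.35 for eligible genes. In 23 members (39.7%) the level in cKO 2 was at least 2 times that in cKO 5, against 33.4% of eligible genes. In 3 (5.17%) it was the other way, against 13.2%. The ratios ran from 0.362 for 4930550C14Rik to 8.59 for Rit2 (95% interval 4.43 to 18.6). Counting error alone covered a ratio of 1 in 25 members, including Gas1, Cenpw, Fancf, Lhx1, Sh2d5, Crhr1 and Gpr176. The interval lay above 1 in 29 members and below 1 in 4.

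**Figure D3:**
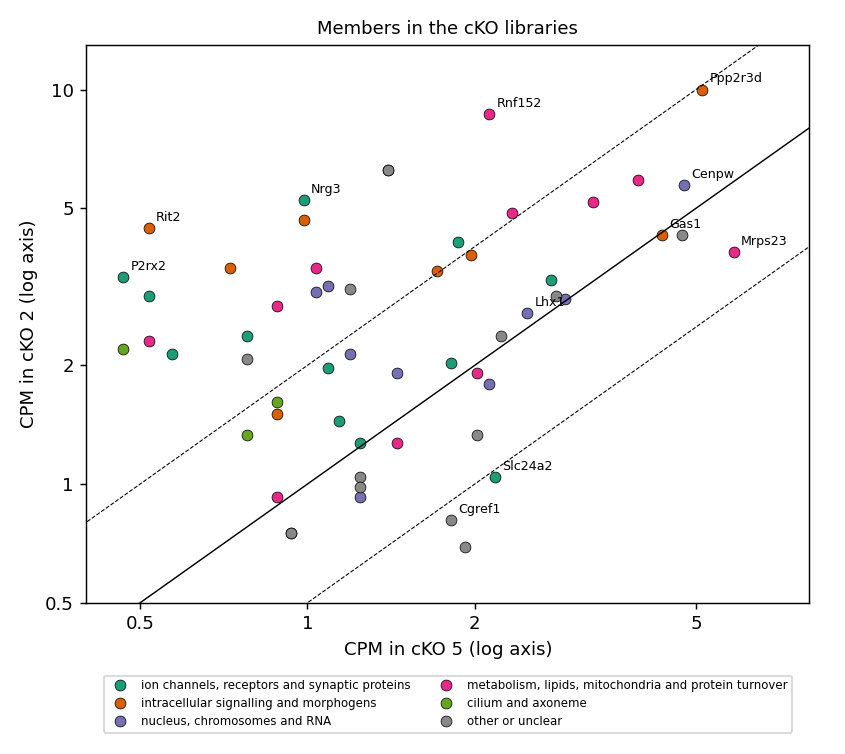
Level of 57 members in cKO 5 (horizontal) and cKO 2 (vertical), in CPM on log axes, coloured by role; the solid line marks equal levels and the dashed lines a ratio of 2. The 22 members drawn above the upper dashed line include Rit2, P2rx2, Nrg3 and Rnf152, and the 3 below the lower one include Slc24a2 and Cgref1; the points of Dzank1 and Stk33 coincide, as do those of Gm3383 and Smc1b.

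The library cKO 2, in which 43 members were higher than in cKO 5, also had the highest sums of neuronal and of radial glia and astrocyte markers. Oligodendrocyte lineage markers (6 of 7 with reads in every library; Sox10 was at 0 in at least 1) were highest in control 1, at 99.1 and 44.9 CPM in the controls against 86.02 and 31.3 CPM. Intermediate progenitor markers (5 of 6 with reads in every library, Neurog1 at 0 in at least 1) had 323 and 202 CPM against 333 and 211 CPM. A sum follows its most abundant genes. Gene by gene, the median log2 ratio of mean CPM, cKO over control, was 1.42 for eligible intermediate progenitor markers and 0.760 for oligodendrocyte lineage markers. It was 1.39 for interneuron markers and 1.14 for radial glia and astrocyte markers. Summed markers of cortical interneurons (10 of 10 with reads in every library) had 76.4 and 45.1 CPM in the controls against 292 and 41.6 CPM. Markers of radial glia and astrocytes (13 of 15 with reads in every library; Gfap and S100b were at 0 in at least 1) had 923 and 249 CPM against 1563 and 188 CPM. The part of these cells in the members' levels was not tested. In cKO 5 the sums of interneuron, radial glia and astrocyte, and excitatory neuron markers were below both controls. Other sums were highest in cKO 5. Border-associated macrophage markers (8 of 9 with reads in every library) had 944 and 1205 CPM in the controls against 403 and 1816 CPM. Markers of monocytes and neutrophils had 174 and 271 CPM against 106 and 330 CPM. The part of these cells was not tested either. The Cajal-Retzius sum, 8.93 and 6.79 CPM in the controls, was 69.7 and 9.06 CPM in cKO (3 of 6 with reads in every library; Trp73, Lhx5 and Ebf3 were at 0 in at least 1). In the controls, 29 members were higher in control 1, 21 in control 6 and 8 were at 0 in both, whereas 61.5% of eligible genes were higher in control 1.

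Of the 22 cell type and pathway lists, the Cajal-Retzius list alone held a member, 1 of its 5 eligible genes. The lists held from 3 to 20 eligible genes each, beside 13116 eligible genes in all. Nothing is read from the number of lists without a member. Of the 16 eligible BACH1 and NRF2 targets, 0 met the 2-fold rule in either direction, which 0.442% (higher) and 0.252% (lower) of eligible genes met. In 3 of them, Nqo1, Slc7a11 and Txnrd1, both cKO levels lay above both control levels, an arrangement found in 1213 eligible genes (9.25%). Glycolysis and lactate genes gave 0 of 20, interferon response genes 0 of 9, and inflammatory cytokine and chemokine genes 0 of 10 doubled in both cKO libraries. Beside the share of 0.442% over all eligible genes, nothing is read from these zeros. By keywords in the deposited ontology text, 9 of 58 members (15.5%) carried a term with "synap", against 5.94% of eligible genes. The string also catches chromosome synapsis, and Smc1b is among the 9. Of the members, 0 carried an immune or inflammatory term, against 5.67%. Terms of mitochondria were carried by 4 members (6.90% against 12.3%), of transcription by 10 (17.2% against 20.7%) and of G-protein coupled receptors by 3 (5.17% against 2.52%). Terms of kinases were carried by 2 (3.45% against 11.4%) and of DNA repair or replication by 0 (against 3.01%).

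Relatives of the members were drawn from the eligible genes by family symbol, for 23 families. Of 111 relatives, 0 met the rule, which 0.442% of eligible genes met, so that the count is near the background. Both cKO levels lay above both control levels in 21 of them (18.9%) and below in 1 (0.901%), beside 9.25% and 5.86% of all eligible genes. With edgeR's TMM factors in place of library totals, the counts were 15 and 3 of 111, beside 8.39% and 6.88%. Most of the 21 stood in 2 families. Among the other mitochondrial small subunit genes, 10 of 27 had both cKO levels above both controls on library totals and 5 of 27 with TMM factors. Examples on library totals were Mrps28 (15.1 and 19.1 CPM against 22.1 and 23.5 CPM) and Mrps25 (2.86 and 2.79 CPM against 4.68 and 3.99 CPM). Among centromere protein genes, 7 of 18 did on library totals and 3 of 18 with TMM factors, and examples on library totals were Cenph (26.7 and 31.8 CPM against 37.1 and 42.5 CPM) and Cenpn (18.9 and 21.8 CPM against 21.8 and 27.3 CPM). The cell cycle list had 7 of 11 genes above both controls on library totals and 3 of 11 with TMM factors.

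The 8 Fanconi genes beside Fancf had log2 ratios of mean CPM from −0.09 for Fancg to 0.44 for Fancm, against 1.81 for Fancf. The LIM homeobox relatives of Lhx1 had log2 ratios of mean CPM up to 3.02, for Lhx5, against 2.80 for Lhx1. Lhx2 had 30.5 and 9.57 CPM in the controls against 102 and 6.32 CPM, and Lhx9 had 4.52 and 0.406 CPM against 21.3 and 0.414 CPM. Rit1, the widely expressed relative of Rit2, had control levels of 52.4 and 40.6 CPM and cKO levels of 58.8 and 53.2 CPM.

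**Figure D4:**
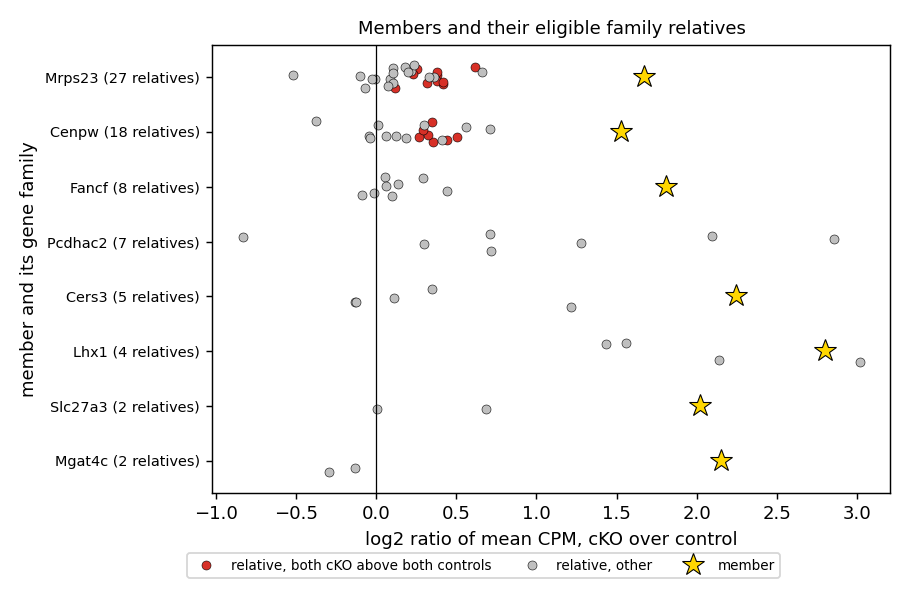
Log2 ratio of mean CPM in cKO over control for members (stars) and their eligible family relatives in 8 families. Relatives are circles, red where both cKO levels lay above both controls on library totals. Pcdhac2, with 0 and 6 reads in the controls, had too few control reads for a star to be drawn. Most relatives of Mrps23 and Cenpw lie slightly to the right of 0 and far left of the member. The median of all eligible genes is itself 0.115 on library totals and 0.0318 with TMM factors. For the relatives of Mrps23 and Cenpw the red points number 10 and 7, and 5 and 3 relatives have that arrangement with TMM factors.

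In the authors' deposited tables, each of which compares 1 cKO library with 1 control library, 54 of the 58 members were called higher in cKO 2 against control 1, where 20% of the listed genes were. In the authors' deposited tables of cKO 2 against control 6, cKO 5 against control 1 and cKO 5 against control 6, 56 members were called each time, beside 33.7%, 8.79% and 9.23% of listed genes. All 4 tables called 49 members. The rule used the same values, so nothing is read from these shares. A fit over all genes with replicates made no call: edgeR's quasi-likelihood test found 0 higher genes among 15951 (0%) at an adjusted p under 0.05, and 0 of the 52 members it tested. At an unadjusted p under 0.05 the same test held 28 genes as higher (0.176%), of which 15 were members. DESeq2 gave 0 genes after adjustment and 75 as higher before it (0.401%), with 28 of the 58 members. The rule chose the members on this same contrast, so nothing is read from how many of these genes are members.

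The members were spread over the genome. Of the 19 autosomes, 18 held at least 1 member, with 9 of 1029 eligible genes on chromosome 7 (0.875%), 7 on chromosome 11 and 5 of 373 on chromosome 18 (1.34%). One pair of neighbours lay within 1 Mb of each other: Exph5 (chromosome 9, 53301670 to 53377514) and 4930550C14Rik (53402325 to 53434402), both on the plus strand and 24.8 kb apart. 4930550C14Rik had 6 and 3 reads in the controls and 12 and 37 reads in cKO. The ratio of cKO 2 to cKO 5 was 0.79 for Exph5 (95% interval 0.398 to 1.53) and 0.362 for 4930550C14Rik (95% interval 0.172 to 0.709). Members spanned a median of 36.4 kb of the genome against 25.1 kb for eligible genes, and 14 of them (24.1%, against 14.95%) spanned over 100 kb. The longest was Nrg3, at 1104 kb (chromosome 14, 38368952 to 39473088, minus strand). Other positions of named members are chromosome 13, 60174405 to 60177365 for Gas1, chromosome 10, 30194569 to 30200560 for Cenpw and chromosome 11, 84518284 to 84525535 for Lhx1.

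Exons of 18 members overlapped those of another annotated gene, 12 of them on the opposite strand, and the sources used here do not say whether counting used strand. In 4 members at least 20% of the exon bases were shared. Pcdhac2 shares 48.6% with the other protocadherin alpha genes, whose constant exons are common to the cluster. Zfp524 shares 46.5% with Gm44973. Adat3 shares 38.4% with Scamp4 and 33.5% with another annotated gene that is also named Adat3. Fam129c shares 21.8% with Pgls, a far more abundant gene. Pgls had control levels of 78.98 and 83.0 CPM and cKO levels of 81.7 and 93.3 CPM. The counts of these 4 members are uncertain because of the shared exon bases.

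At the threshold, leaving out genes known by a number only, Zfp524 (0.458 and 0.116 CPM against 0.924 and 1.24 CPM, ratio 2.02) and Crtac1 (2.08; 0.572 and 0.290 CPM against 3.12 and 1.19 CPM) were just inside. Them4, an acyl-CoA thioesterase gene (4.58 and 5.05 CPM against 16.4 and 10.05 CPM, ratio 1.99), Plekhg4 (1.98) and the kinase gene Dyrk3 (3.38 and 1.80 CPM against 10.6 and 6.63 CPM, ratio 1.96) were just outside. Them4 and Dyrk3 had more reads than any member. With TMM factors, 50 of the 58 members met the rule, and Dyrk3 and Olfm3 joined them. The 8 that did not were Mrps23, Gm11992, Gm14418, Rnf225, 4930550C14Rik, Zfp524, Gm3383 and Smc1b. With either scaling, all 58 had both cKO levels above both control levels. The rule's ratio of at least 2 fixed that outcome in advance, so nothing is read from it. The TMM factors, 0.917 to 1.15, and the DESeq2 size factors, 0.892 to 1.14, are too close to 1 to undo such a ratio.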

How the data were processed

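RNA sequencing gave 4 libraries, grouped by their titles. Per the submitters' processing notes, Bowtie2 2.2.3, TopHat2 2.0.12, HTSeq 0.6.0 and the mm9 build were named. Positions in the files nevertheless matched GENCODE M21 (GRCm38): 90.3% of 21922 matched genes were identical. The authors deposited 4 tables of 1 cKO and 1 control library each, with raw read counts per gene. The deposited normalized values are CPM, the deposited fold changes are linear ratios of these, and the deposited log2 column holds their log2. The authors' p-values come from a test not named in the sources used here and were not used; calls were read from their up or down and significance columns. Counts were joined by gene (18723 with a count in every library) and CPM was recomputed from them, with 0 kept as 0.

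Ratios carry exact (Clopper-Pearson) binomial 95% intervals from SciPy 1.17.1. Over all genes, edgeR 4.0.16 (R 4.3.3; TMM, filterByExpr with a minimum count of 10, two-sided quasi-likelihood test, Benjamini-Hochberg at 0.05) and DESeq2 1.42.0 compared the genotypes. Genes were named by a rule: the 10 most abundant members, the 10 with the highest ratio, the 8 most even within genotypes, the 5 most abundant in each class by the ratio of cKO 2 to cKO 5, list members, and 3 genes on each side of the threshold. Other members were named after their values were seen. The values of 1 member are not reported here, and it is counted in totals but not drawn. The members, gene lists and families were chosen with earlier results of these data known.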

Additional observations from a re-analysis of the deposited data

How the results depend on the processing

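The number of members, 58 as reported, was 52 with TMM factors and 52 with DESeq2 size factors, 50 of them shared with the 58 each time, and 64 with a missing count taken as 0. It was 100 with at least 20 reads and 28 with at least 80 reads, 138 with a fold of at least 1.5 and 28 with a fold of at least 3, and 89 with all biotypes. Leaving out 1 library gave from 140 genes (without cKO 2) to 1860 genes (without cKO 5), since the rule then asks less; it gave 465 without control 1 and 183 without control 6. Without cKO 5, 37 of the 58 met the rule over the remaining reads, and without cKO 2, 26 did. The members at least 2 times higher in cKO 2 than in cKO 5 numbered 23, and 20 with either other scaling; with at least 80 reads they were 13. In the fit over all genes, 0 genes passed the adjusted p with edgeR under either scaling, with or without the filter, without any 1 library, and with DESeq2. No paired analysis was possible because the replicate numbers 1, 6, 2 and 5 are not shared between the genotypes. Few reads limit every member: 51 of 58 had fewer than 20 reads in control 1, and 18 had fewer than 20 in cKO 5.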

Other observations

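Genes outside the rule's gene types met the same 2-fold threshold with at least 40 reads, and their values are given without a test. On chromosomes X and Y these were Erdr1, Gspt2, Gm21887, Col4a6 and Il1rapl1. Erdr1 had 99 and 101 reads in the controls and 274 and 273 reads in cKO, more than any of the 58 members, a ratio of 2.41. Gm21887 had 21 and 26 reads against 79 and 147 reads. Gspt2, which encodes a release factor of translation, had 41 reads in each control, 150 reads in cKO 2 and 195 reads in cKO 5, a ratio of 3.64. Col4a6, a basement membrane collagen gene, had 7 and 5 reads in the controls and 67 and 21 reads in cKO. Il1rapl1, which encodes a synaptic organiser, had 1 and 6 reads against 25 and 15. Of 13590 protein-coding genes with enough reads, 13116 remained once chromosomes X and Y and Aqp4 were left out. Among noncoding and unclassified transcripts 31 autosomal genes met the threshold, 9 of them annotated as lincRNA and 4 as antisense. The share over all genes of these kinds, or on chromosomes X and Y, was not computed. Nothing is read from these counts. The lincRNA Gm2885 was even, with 1 and 0 reads in the controls and 28 and 31 reads in cKO. The processed transcript A330023F24Rik had 6 and 0 reads against 33 and 39 reads, and the unclassified transcript Gm10209 had no control read and 32 and 44 reads in cKO. Several of these transcripts may share reads with overlapping genes.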
